A study of Mus musculus with 4 samples.

Results

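Conventional CD4 T cells were examined among CD45+ cells of the mouse liver, measured by 10x Genomics 5′ single-cell RNA sequencing. Members were selected on measured values, the UMI (unique molecular identifier, 1 per captured transcript) counts of each cell. Among kept cells, which had 600 to 6000 genes and at most 5% mitochondrial UMIs, a member had at least 1 UMI of Cd3d, Cd3e or Cd3g and at least 1 of Cd4. It had 0 UMIs of Cd8a, Cd8b1, Foxp3, Zbtb16, Csf1r, Siglech, C1qa, C1qb and C1qc, which leaves out CD8 T cells, Foxp3-positive regulatory T cells, Zbtb16-positive innate-like T cells, macrophages and plasmacytoid dendritic cells. This rule took 1612 of the 39121 deposited cells, of which 36286 were kept. The study asked how loss of miR-146a, alone or together with its reported target Ccl5, changes liver immune cells in a model of hepatocellular carcinoma. All mice were female C57BL/6. The untreated group, called young WT here, was of wild-type mice 8 weeks of age. The other 3 groups were treated with diethylnitrosamine (DEN), a liver carcinogen given intraperitoneally at 25 mg/kg on day 14 of life, and after weaning on day 21 were fed a choline-deficient diet with 60% fat (CDHFD) until 36 weeks of age by the sample labels. They were wild-type mice (WT below), miR-146a-/- mice and miR-146a-/- Ccl5-/- double knockout mice (DKO). Each group was 1 library, the number of mice behind a library is not stated in the sources used here, and both deletions were germline, so every cell of the mouse carried them. Young WT and treated WT mice differed in age, DEN and diet at once, and these cannot be told apart.

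CD4 T cells recognise peptides on major histocompatibility complex (MHC) class II and act mainly by helping other cells. CD40 ligand, the product of Cd40lg, is their best-known helper molecule and signals to B cells, dendritic cells and macrophages. Naive and central memory cells recirculate through lymph nodes with the help of CCR7, whereas cells held in the liver carry CXCR6, and repeated stimulation raises PD-1 (Pdcd1) and other inhibitory receptors. miR-146a is induced by NF-κB and represses Traf6 and Irak1 upstream of it, and CCL5 is a chemokine that activated T cells secrete and that attracts other leukocytes.

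The deleted microRNA is shown first, since its seed (bases 2 to 8, in capitals) is what it pairs with in target transcripts. The mature strand mmu-miR-146a-5p is 22 bases long and lies at chr11:43374435-43374456 on the minus strand (GRCm38.p6, RefSeq).
mmu-miR-146a-5p: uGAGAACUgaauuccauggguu

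The matrices have no entry for miR-146a, so its loss was not checked in the counts. The other deleted gene, Ccl5 (ENSMUSG00000035042, chr11:83525778-83530518, minus strand, GRCm38, GENCODE vM21), stood at 3849.9 (3797 to 3904), 6657 (6539.7 to 6775), 24423 (24252 to 24594) and 82.6 (71.4 to 95.1) CPM (UMIs of the gene per 1000000 UMIs) in the summed UMIs of the CD4 T cells of young WT, WT, miR-146a-/- and DKO mice, with exact 95% Poisson intervals. Wherever 4 values are given in a row below, they are in this order. Ccl5 was thus lowest in the library labelled DKO, where 98 of 294 cells held its 193 UMIs, and highest in miR-146a-/-. In B cells, which are not known as its source and serve as a background here, Ccl5 was 249, 190.3, 109 and 15.9 CPM. Whether this background is free RNA or comes from doublets was not tested.

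The libraries held 10985, 9120, 8393 and 10623 cells and 90756272, 103165826, 88706063 and 103147246 UMIs over 32285 genes, with a median of 6626, 8260, 7788 and 7259 UMIs per cell. Of these cells 10283, 8329, 7824 and 9850 were kept. The CD4 T cells had nearly the same depth in each library, with a median of 6502, 6520, 6391.5 and 6577.5 UMIs and 2452, 2503, 2456 and 2498 genes per cell. Their summed UMIs were 5178063, 1857123, 3209134 and 2336037. Pairs of libraries shared 109 to 150 cell barcodes (1.26% to 1.64% of the smaller library), and at most 1 barcode of a pair was a CD4 T cell in both. With 1 library per group there is no replicate, so no test was made and no p-value is given, and all intervals cover counting error only. Changes are log2 ratios of CPM with a prior of 0.5 counts, and a gene is said to have risen or fallen only where it changed at least 2-fold.

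The genes of the rule describe the cells and support nothing. Cd4 stood at 311, 333, 441 and 423 CPM and Cd3e at 1084, 1051, 1496 and 1327 CPM. Just inside the rule, 545 of the 1612 cells had exactly 1 Cd4 UMI (280, 86, 90 and 89 by library) and 50 had exactly 1 Cd3 UMI, and the median was 2, 2, 3 and 3 Cd4 UMIs and 20, 19, 26 and 24 Cd3 UMIs per cell. Just outside it, 1589, 943, 496 and 724 cells met every other condition but had no Cd4 UMI, and some of these may be CD4 T cells whose Cd4 was not captured. A UMI of Zbtb16 alone kept out 530, 36, 25 and 26 cells (by a single UMI in 229, 15, 13 and 13), Foxp3 alone 73, 31, 165 and 132, and Cd8a or Cd8b1 alone 114, 70, 64 and 36. Csf1r alone kept out 26, 46, 53 and 37 cells, the C1q genes 28, 40, 55 and 31, and Siglech 5, 3, 3 and 0.

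Cd40lg, a gene that the rule did not use, fits the label. Cd40lg stood at 236 (223 to 249), 196 (176 to 217), 81.6 (72.1 to 92.2) and 111 (97.8 to 125) CPM against 21.0, 7.49, 3.05 and 3.18 CPM in CD8 T cells gated in the same libraries. All 11 listed markers (Cd40lg, Zbtb7b, Trac, Trbc1, Trbc2, Cd5, Cd6, Cd28, Icos, Lat and Cd2) were detected in every library, with summed levels of 2926, 3221, 3678 and 3741 CPM. Lat, an adaptor of T-cell receptor signalling, was the most abundant at 654, 713, 1019.6 and 930.2 CPM. Most of these genes, Lat among them, are shared with other T cells, so their presence does not tell CD4 T cells apart. Zbtb7b, which encodes ThPOK, the regulator of CD4 lineage commitment, was at 50.8, 45.2, 29.9 and 43.2 CPM, and no level in CD8 T cells is set beside it.

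The gate also held transcripts of other cell types. For NKT cells, 6 of 9 markers had UMIs (Zbtb16, Trav11d and Traj18 were at 0), with summed levels of 1191, 1037, 733 and 931 CPM, led by Il2rb at 478, 443, 489.5 and 502 CPM. For regulatory T cells, 7 of 8 markers had UMIs (Foxp3 was at 0 by the rule), at 385, 474, 701 and 774 CPM, led by Ctla4 at 176, 255, 339 and 409 CPM. So the summed NKT markers were highest in young WT and the regulatory markers highest in miR-146a-/- and DKO. Among gamma-delta T cell markers 6, 7, 7 and 6 of 8 were detected (Sox13 at 0 in all, Cd163l1 at 0 in young WT and DKO) at 91.3, 63.5, 46.1 and 42.8 CPM, led by Tcrg-C4 at 26.7, 19.9, 12.8 and 12.4 CPM, and both CD8 genes were at 0 by the rule. For NK cells and ILC1, 9, 8, 9 and 9 of 9 markers had UMIs (Klra4 at 0 in WT) at 634, 654, 547 and 587 CPM, led by Gzma at 315, 384, 213 and 206 CPM. Their sum was similar in the 4 libraries, but its members went different ways. From WT to miR-146a-/- Eomes and Prf1 rose (log2 ratios of 1.63 and 1.31), whereas Klre1 (-1.80) and Ncr1 (-1.28) fell. The similar sum therefore does not show that RNA of these cells was level. All 8 B-cell markers were present at 514, 354, 395 and 229 CPM, led by Ighm at 226, 143, 112 and 98.0 CPM, and all 3 plasma cell markers at 89.8, 79.7, 86.0 and 70.2 CPM, led by Xbp1 at 61.2, 56, 55.2 and 56.5 CPM.

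Among myeloid markers, 9, 9, 9 and 8 of 9 conventional dendritic cell genes (Cd209a at 0 in DKO) summed to 3139.6, 4750.4, 2361 and 1275 CPM, led by the MHC class II invariant chain Cd74 at 1806, 2605, 1398 and 742 CPM. The 7 monocyte markers summed to 450.2, 523, 301 and 342 CPM, led by Ly6c2 at 206, 268, 111 and 112 CPM, a gene that memory T cells also express. Of 12 macrophage and Kupffer cell genes 4, 3, 5 and 5 were detected, at 11.8, 24.2, 43.0 and 33.0 CPM, led by Cd68 at 9.66, 18.3, 37.1 and 25.3 CPM (Csf1r and the C1q genes at 0 by the rule, Folr2 at 0 in all libraries, Clec4f and Timd4 at 0 in all but DKO, Marco in all but miR-146a-/-, and Vsig4 in WT and DKO). The rule had left out every cell with a UMI of Csf1r or a C1q gene. The low level of macrophage RNA is therefore no result independent of the rule. Of 6 neutrophil genes 4, 3, 6 and 6 were detected, at 28.8, 2.69, 92.5 and 1467 CPM, led by S100a9 at 17.4, 1.62, 43.9 and 587 CPM (Camp and Ngp at 0 in young WT and WT, Cxcr2 at 0 in WT), and 3 of 5 plasmacytoid dendritic cell genes (Siglech and Klk1 at 0) at 91.9, 50.6, 50.2 and 41.5 CPM, led by Ly6d at 63.7, 35.0, 32.7 and 27.4 CPM. Of 14 hepatocyte genes 13, 11, 12 and 10 were detected at 39.8, 55.5, 26.8 and 29.5 CPM, led by Trf at 20.1, 22.6, 6.86 and 8.13 CPM, with Mup3 at 0 in young WT and DKO, Serpina1a in WT and DKO, and Serpina1c and Cyp2e1 in all treated libraries. Hepatocyte RNA was thus low. Of 6 endothelial genes 6, 6, 3 and 6 were detected at 70.9, 81.8, 28.4 and 56.1 CPM, led by Pecam1 at 59.5, 57.1, 27.4 and 45.4 CPM (Kdr, Stab2 and Bmp2 at 0 in miR-146a-/-), and of 4 stellate genes 2, 0, 3 and 0 at 1.16, 0, 1.56 and 0 CPM, with Dcn at 0.966, 0, 0.312 and 0 CPM, Col3a1 and Col1a1 at 0 in young WT and Lrat at 0 in miR-146a-/-. The 4 globin genes summed to 886, 0.538, 1924 and 1.71 CPM, led by Hbb-bs at 638, 0, 1063 and 0.428 CPM, with 4, 1, 4 and 2 of them detected (Hba-a1, Hbb-bs and Hbb-bt at 0 in WT, Hba-a2 and Hbb-bt at 0 in DKO). These counts sat in few cells. In all, 78 of the 1612 cells (36, 19, 16 and 7) had more than 10 UMIs of globin, neutrophil or MHC class II genes, with a median of 12361, 12414, 15920 and 13852 UMIs per cell, and 34, 19, 14 and 6 of them held 95.4%, 96.7%, 96.7% and 92.2% of the MHC class II UMIs. Whether these are doublets was not tested, and some of the calls below are lost without them.

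Conventional CD4 T cells were fewer in treated WT than in young WT mice, and more numerous in miR-146a-/- than in the other treated mice. They made up 669 of 10283 kept cells in young WT (6.51%, exact binomial 95% interval 6.04% to 7.0%), 233 of 8329 in WT (2.80%, 2.45% to 3.17%), 416 of 7824 in miR-146a-/- (5.32%, 4.83% to 5.84%) and 294 of 9850 in DKO (2.98%, 2.66% to 3.34%). WT differed from young WT by -3.71 percentage points (Newcombe interval -4.3 to -3.11), miR-146a-/- from WT by 2.52 points (1.91 to 3.14), and DKO from miR-146a-/- by -2.33 points (-2.94 to -1.74). As a share of cells with a Cd3 UMI they were 9.73% (9.04% to 10.5%), 4.32% (3.79% to 4.89%), 8.45% (7.69% to 9.27%) and 5.85% (5.21% to 6.53%), so that DKO exceeded WT by this measure. The order of the libraries was the same with either denominator. The Cd4 UMIs needed for the count were themselves not equally abundant, as given above. With at least 2 Cd4 UMIs required, 389, 147, 326 and 205 members remained. WT then differed from young WT by -2.02 points, and the miR-146a-/- share of kept cells lay above that of young WT. The part of Cd4 level in these shares was not tested further. The NKT markers were also highest in young WT, and without members bearing a UMI of Trav11, Klrb1c, Ncr1 or Klre1 the difference between WT and young WT was -2.20 points, and miR-146a-/- (4.96%) lay above young WT (4.51%). Foxp3-positive Cd4 cells gated in the same way made up 0.710%, 0.372%, 2.11% and 1.34% of kept cells and CD8 T cells 15.2%, 25.7%, 28.7% and 19.7%. Without cells that had a UMI of Ikzf2, Ikzf4, Il2ra or Lrrc32, genes of regulatory T cells, the miR-146a-/- share exceeded that of WT by 0.639 points, an alternative added after the values had been seen, and the DKO share (1.37%) was below that of WT (1.79%). In a strict gate of 207, 83, 193 and 124 members without UMIs of 16 marker genes of other lineages, the share was highest in miR-146a-/-, at 2.01%, 0.997%, 2.47% and 1.26%.

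**Figure D1:**
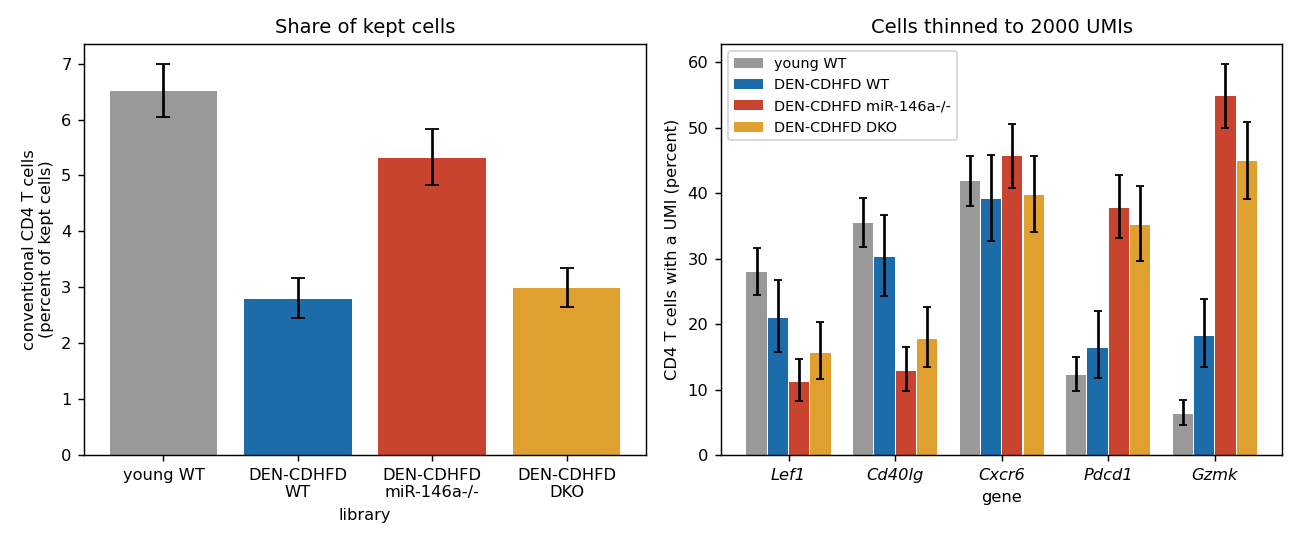
Left, conventional CD4 T cells as a percentage of kept cells in each library; right, percentage of CD4 T cells with a UMI of Lef1, Cd40lg, Cxcr6, Pdcd1 or Gzmk after each cell was reduced to 2000 randomly drawn UMIs. Bars are 1 library each and error bars exact 95% binomial intervals; the miR-146a-/- share of kept cells (5.32%) lies above WT (2.80%) and DKO (2.98%), and Gzmk is found in 54.9% of miR-146a-/- and 6.33% of young WT cells.

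Within each library the CD4 T cells were set against CD8 T cells gated on Cd8a or Cd8b1 without Cd4, and genes were ranked by the lowest of the 4 log2 ratios. Cd40lg was higher in CD4 T cells by 3.49 to 5.11 over the 4 libraries. Tnfsf8, the ligand of CD30, exceeded CD8 T cells by 1.46 to 2.48, Tbc1d4, a Rab GTPase-activating protein, by 1.62 to 3.15, and Izumo1r, the folate receptor 4 gene of helper and regulatory cells, by 1.34 to 2.85. Sostdc1, a secreted antagonist of BMP and Wnt signals, was at 7.56 in young WT and 7.02 in WT and had 0 UMIs in CD8 T cells of the other libraries, so that no exact ratio is given there. Next in the ranking after Cd40lg were Tmem176b (1.90 to 3.04), Capg (1.87 to 2.17), Ext1, Tmem64, Ass1, Smco4, Tspan32, Ckb, Tesc and Spp1. Of the 15 genes of this ranking, Cd40lg and Tnfsf8 encode ligands of helper cells. The reverse ranking held receptors and lytic genes of killer cells, with Klra7 higher in CD8 T cells by 1.72 to 3.52, Ly6c2 by 1.44 to 2.85, Klrd1 (CD94) by 1.36 to 2.08 and perforin (Prf1) by 0.94 to 2.37. Gm44174 (6.02 to 8.02) and Jchain (3.97 to 8.36) headed it, and Dapk2, Atp8b4, Rras2, Samd3, Fgf13, Adgrg1, Nr4a2, Tm6sf1 and Igkc completed it.

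Against Foxp3-positive Cd4 cells, conventional cells had more Cxcr6 (2.38 to 3.42), Themis, a regulator of T-cell receptor signalling (2.14 to 2.81), Tnfsf8, Fas ligand (1.77 to 5.59), Gzmk (1.69 to 5.99) and Cd40lg (1.62 to 2.96), beside Spp1, Pde3b, Zfp683, St3gal6, Apol7e, Ehd3 and Mctp2. Sostdc1 and Gzmc were also ranked, but in miR-146a-/- they had 0 UMIs in Foxp3-positive cells and at most 1.87 CPM in conventional cells, so no excess is shown there. Higher in Foxp3-positive cells were Il1rl1, the IL-33 receptor, by 3.46 to 4.45, the epithelial retention integrin Itgae by 3.38 to 4.36, the Ikaros-family regulators Ikzf4 (2.77 to 4.42) and Ikzf2 (2.28 to 2.67), the tissue repair factor Areg (2.38 to 4.21), Tnfrsf9 (2.28 to 3.57) and Il2ra (2.02 to 3.35), with Frmd5, Rln3, Ebi3, Ncmap, Lclat1, Sdc4, Neb and Matk. The cells of the gate therefore lay apart from Foxp3-positive cells by Ikzf4, Il1rl1 and Il2ra in each library, although 236, 84, 226 and 159 of them had a UMI of Ikzf2, Ikzf4, Il2ra or Lrrc32.

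Across the 3 contrasts the largest number of genes changed between miR-146a-/- and WT. Of 3608 genes compared between WT and young WT, 29 rose and 18 fell (1.30% of those compared, 0.804% higher and 0.499% lower). Of 3619 compared between miR-146a-/- and WT, 44 rose and 80 fell (3.43%, 1.22% and 2.21%), and of 3515 compared between DKO and miR-146a-/-, 20 rose and 12 fell (0.910%, 0.569% and 0.341%). The median log2 ratio of all compared genes was 0.03, -0.02 and 0.04. Between miR-146a-/- and DKO, 10 rose and 22 fell without cells with a UMI of Ikzf2, Ikzf4, Il2ra or Lrrc32. In the strict gate 65 rose and 16 fell there. Contrasts share libraries, since treated WT and miR-146a-/- each enter 2 of them, so a value high or low in one of these libraries moves both. Fewer cells (233) and UMIs stand behind WT than behind any other library. Of the genes followed through the alternatives, 30, 72 and 27 were called in these contrasts, of which 24, 51 and 11 were still past 2-fold in the same direction in the strict gate, and 19, 41 and 9 without cells with a UMI of Ikzf2, Ikzf4, Il2ra or Lrrc32. The members of each list below are set against these shares and medians.

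Apart from globins of 1 cell, Ccl4 and Ccl3 had the largest rises between WT and miR-146a-/-. Ccl4 stood at 194 (182 to 206), 278 (254 to 303), 2747 (2690.4 to 2805) and 2146 (2087 to 2206) CPM and Ccl3 at 55.8 (49.6 to 62.6), 61.4 (50.6 to 73.7), 559.7 (534 to 586) and 524 (495 to 555) CPM. Both were low in young WT and WT and high in miR-146a-/- and DKO, and with Ccl5 deleted its neighbours on chromosome 11 were still high. They encode the chemokines MIP-1β and MIP-1α. Set against WT, miR-146a-/- had log2 ratios of 3.30 (3.18 to 3.44) for Ccl4, 3.18 (2.91 to 3.47) for Ccl3 and 1.88 (1.85 to 1.90) for Ccl5, and DKO against miR-146a-/- had -0.36, -0.09 and -8.20 (-8.42 to -8.00). Of the 7 genes of this list 3, 3 and 3 were compared in the 3 contrasts. All 3 of them (Ccl3, Ccl4 and Ccl5) rose between WT and miR-146a-/-, where the list median was 3.18, 0 changed between young WT and WT (median 0.52), and between miR-146a-/- and DKO only the deleted Ccl5 changed (median -0.36). Without cells with a UMI of Trav11, Klrb1c, Ncr1 or Klre1, however, 2 of 2 compared rose from young WT to WT (median 1.16). In the strict gate 1 of 2 rose there (median 1.97), and 1 of 4 rose between miR-146a-/- and DKO. In CD8 T cells of the same libraries Ccl5 stood at 10629, 27266, 28419 and 170.0 CPM and Ccl4 at 555, 2469, 1429 and 1140.2 CPM, already high in treated WT, and in B cells Ccl4 was at 71.3, 88.4, 54.0 and 5.30 CPM. Without the 78 cells with globin, neutrophil or MHC class II UMIs, Ccl4 was 209.9, 296, 2992 and 2251 CPM, and without cells that had a UMI of a regulatory T-cell gene the ratio of miR-146a-/- over WT was 1.68. Ccl4 was thus past 2-fold without either kind of cell, though by less without the second, where its ratio was below those of Lag3, Havcr2 and Gzmk (1.88).

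**Figure D2:**
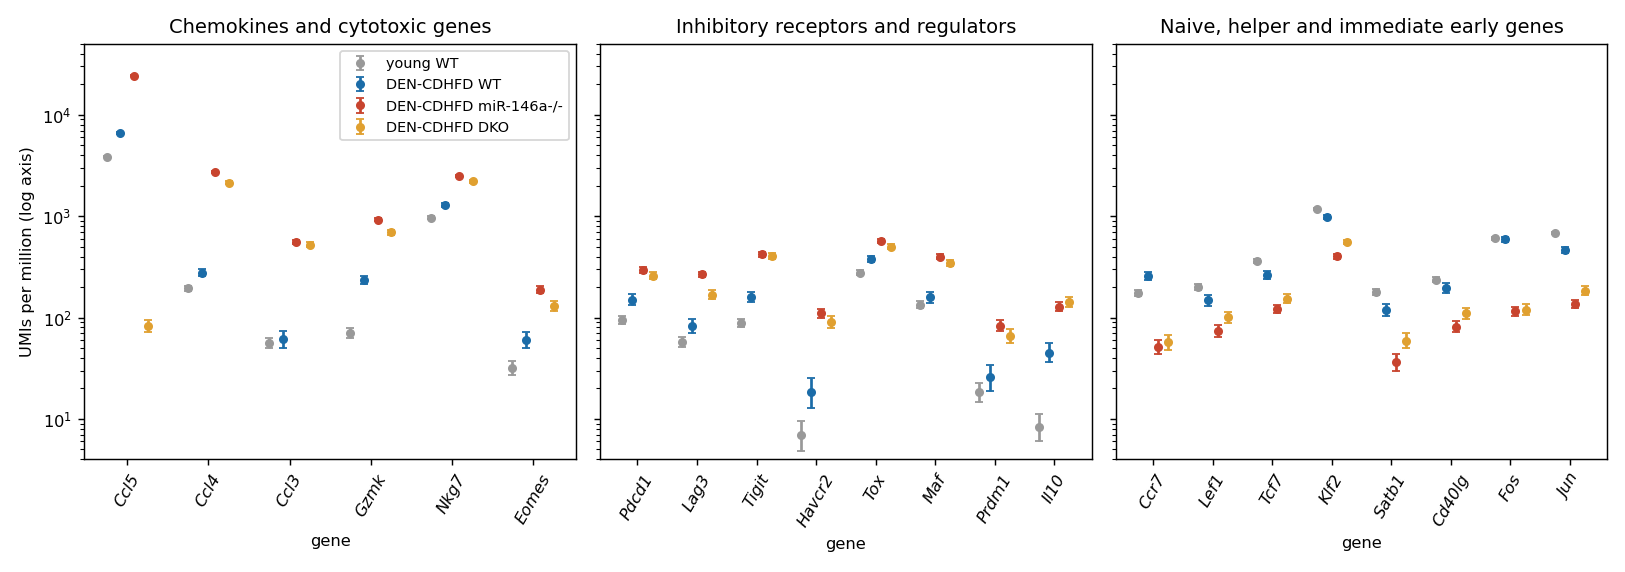
Levels of 22 genes in conventional CD4 T cells of the 4 libraries, in CPM on a log axis; points are 1 library each and error bars exact 95% Poisson intervals. Most of the chemokine, cytotoxic and inhibitory receptor genes lie highest in miR-146a-/- or DKO, and the naive, helper and immediate early genes lowest there, except that Ccl5 is at 82.6 CPM in DKO.

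Several cytotoxic genes rose as well. Gzmk, a granzyme of memory-like killer and helper cells, was at 70.5 (63.4 to 78.1), 234 (213 to 257), 919.6 (887 to 953) and 691 (658 to 725) CPM, rising at both steps before the second deletion, by a log2 ratio of 1.73 (1.53 to 1.94) from young WT to WT and 1.97 (1.83 to 2.12) from WT to miR-146a-/-. Eomes, the T-box factor of killer and memory cells, was at 31.9 (27.2 to 37.1), 60.3 (49.7 to 72.6), 188 (173 to 204) and 131 (117 to 147) CPM (miR-146a-/- over WT 1.63 (1.35 to 1.94)). Each of these values lay outside the counting intervals of the other libraries. Perforin (Prf1) was at 51.2, 33.9, 84.4 and 51.8 CPM and rose by 1.31 between WT and miR-146a-/-, and granzyme B (Gzmb) at 304, 362, 786 and 464 CPM by 1.12. For Gzmb that ratio was 0.38 without cells bearing a regulatory T-cell UMI, short of 2-fold, but 2.75 in the strict gate and 2.73 without cells with a UMI of Trav11, Klrb1c, Ncr1 or Klre1. Nkg7, a granule membrane protein, was at 969, 1296, 2478 and 2203 CPM and granzyme A (Gzma) at 315, 384, 213 and 206 CPM. Of the 14 genes 11, 11 and 11 were compared. Gzmk rose between young WT and WT, 4 rose (Gzmb, Gzmk, Prf1 and Eomes) and 1 fell (the killer receptor Klrk1) between WT and miR-146a-/-, and Klrk1 alone rose between miR-146a-/- and DKO, with medians of 0.26, 0.77 and -0.17. Klrk1, at 147, 99.6, 30.8 and 74.1 CPM, changed sign in both contrasts in the strict gate (log2 0.85 and -1.88). Without cells with a UMI of Trav11, Klrb1c, Ncr1 or Klre1, 3 of 8 compared rose from young WT to WT. From miR-146a-/- to DKO 0 rose and 2 fell without these cells or without those bearing a regulatory T-cell UMI. In the strict gate 0 rose and 1 fell there. The list median of miR-146a-/- over WT was 0.32 without cells bearing a regulatory T-cell UMI and 1.12 in the strict gate. Shares of cells with a UMI were taken after each cell had been reduced to 2000 randomly drawn UMIs (thinned), which left out 21, 8, 6 and 7 shallower cells and used 648, 225, 410 and 287. The share of thinned cells with a Gzmk UMI was 6.33% (4.58% to 8.49%), 18.2% (13.4% to 23.9%), 54.9% (49.9% to 59.8%) and 44.9% (39.1% to 50.9%), against 0.571, 0.342, 0.962 and 0.163% of B cells thinned in the same way. Without thinning it was 14.2, 27.0, 62.5 and 52.7%. The median depth before thinning was 6502, 6520, 6391.5 and 6577.5 UMIs in CD4 T cells and 5653, 6865, 7069.5 and 6689.5 in B cells, of which 13, 10, 0 and 5 were left out. In CD8 T cells, Gzmk stood at 227, 839, 704 and 771 CPM, close to one another in the 3 treated libraries.

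Some inhibitory receptor genes were also higher without miR-146a, whereas others fell or did not reach 2-fold. Tigit, a receptor for CD155, stood at 88.5 (80.5 to 96.9), 159 (141 to 178), 420.1 (398 to 443) and 407 (381 to 433) CPM, and Lag3, which binds MHC class II, at 57.7 (51.4 to 64.7), 82.9 (70.3 to 97.1), 266 (249 to 285) and 168 (152 to 185) CPM. Havcr2 (TIM-3) was at 6.95 (4.87 to 9.63), 18.3 (12.7 to 25.6), 111 (99.4 to 123) and 90.3 (78.5 to 103) CPM. All 3 were lowest in young WT, intermediate in WT and high in miR-146a-/- and DKO. From WT to miR-146a-/- their log2 ratios were 1.40 (1.22 to 1.59), 1.68 (1.43 to 1.94) and 2.58 (2.09 to 3.15), and from miR-146a-/- to DKO -0.05, -0.66 and -0.29. Pdcd1 (PD-1) was at 93.9, 150.2, 295 and 258 CPM, Ctla4 at 176, 255, 339 and 409 CPM and Tox, a nuclear factor of chronically stimulated T cells, at 277, 379, 571 and 501 CPM, which for these 3 is a change of 0.97, 0.41 and 0.59 between WT and miR-146a-/-. Of 15 listed genes 11, 12 and 11 were compared. Between WT and miR-146a-/- 5 rose (Lag3, Tigit, Havcr2, Entpd1 and Ikzf2) and 2 fell (Cd160 and Btla), with a list median of 0.82. In the strict gate 7 of 11 compared rose and 0 fell there, with a median of 1.44, and Btla (-1.05) was not among those compared. Without cells with a UMI of Ikzf2, Ikzf4, Il2ra or Lrrc32, 4 of 9 rose and 0 fell, with a median of 0.66. Lilrb4a alone rose between young WT and WT (median 0.45) and was at -0.02 in the strict gate. It has a near-identical paralog, so its count is uncertain. Between miR-146a-/- and DKO 0 changed (median -0.13). The regulatory T-cell markers in the gate moved the same way, from a summed 474 CPM in WT to 701 CPM in miR-146a-/-. Without cells with a UMI of Ikzf2, Ikzf4, Il2ra or Lrrc32 the ratios were 1.12 for Tigit, 2.01 for Lag3 and 1.89 for Havcr2. Their further part in these results was not tested. The ratio of Cd160 was -0.19 without cells with a UMI of Trav11, Klrb1c, Ncr1 or Klre1, genes of NK and NKT cells, which were 205, 40, 28 and 42 of the members. Btla was -0.51 without cells bearing a regulatory T-cell UMI and -0.98 without the 78 cells with globin, neutrophil or MHC class II UMIs. By thinned cells, a Tigit UMI was found in 11.9, 17.8, 48.5 and 43.9% (B cells 0.286, 0.684, 0 and 0%, unthinned 22.4, 39.5, 69.7 and 66.7%), a Lag3 UMI in 5.71, 9.78, 31.5 and 19.9% (B cells 0.381, 0.513, 0.481 and 0.326%, unthinned 12.4, 21.0, 50.5 and 35.0%), a Havcr2 UMI in 0.617, 3.56, 19.0 and 13.9% (B cells 0.286, 0.342, 0 and 0%, unthinned 1.79, 9.87, 33.9 and 25.2%) and a Pdcd1 UMI in 12.2, 16.4, 37.8 and 35.2% (B cells 0, 0.342, 0.240 and 0.816%, unthinned 22.6, 35.2, 60.3 and 56.1%). Tigit, Lag3, Havcr2, Il10, Ccl4 and Eomes were added to the genes counted in this way after their values had been seen.

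Il10, Maf and Prdm1, picked from 3 different lists after their values had been seen, also rose between WT and miR-146a-/-. Il10 was at 8.30 (6.01 to 11.2), 45.2 (36.1 to 56), 128 (116 to 141) and 143 (128 to 159.6) CPM, in 10, 17, 92 and 46 cells. Maf, which drives Il10 and follicular helper genes, was at 134 (124 to 144), 158 (140.2 to 177), 398 (376 to 420.0) and 344 (321 to 369) CPM, and Prdm1 (Blimp-1) at 18.3 (14.8 to 22.4), 25.8 (19.1 to 34.3), 83.5 (73.8 to 94.1) and 65.9 (55.9 to 77.2) CPM. These 3 genes were higher in miR-146a-/- and DKO than in young WT and WT. From WT to miR-146a-/- the log2 ratios were 1.49 (1.16 to 1.86), 1.33 (1.15 to 1.52) and 1.68 (1.24 to 2.17). The Prdm1 ratio was 0.81 without cells bearing a regulatory T-cell UMI, whereas Il10 (1.14) and Maf (1.10) stayed past 2-fold. In CD8 T cells Il10 was instead highest in treated WT, at 0.735, 88.0, 9.80 and 6.83 CPM. A thinned Il10 UMI was found in 1.08, 4.44, 14.4 and 10.1% of CD4 T cells (B cells 0.19, 0.171, 0 and 0.326%, unthinned 1.49, 7.30, 22.1 and 15.6%) and a Ccl4 UMI in 6.33, 14.7, 36.8 and 25.8% (B cells 2.57, 3.08, 0.962 and 1.47%, unthinned 12, 24.9, 47.4 and 35.0%).

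Some genes of naive and recirculating cells fell, fewer of them without cells bearing a regulatory T-cell UMI. Klf2, the transcription factor that keeps the egress receptor gene S1pr1 on, was at 1173 (1144 to 1203), 990.2 (945 to 1037), 401 (379.7 to 424) and 556 (527 to 588) CPM. Tcf7 (TCF-1) was at 359 (343 to 375), 263 (240.0 to 287), 122 (110.1 to 135) and 154 (139 to 171) CPM, Lef1 at 199, 148, 73.9 and 100.2 CPM and the chromatin organiser Satb1 at 179.8 (168 to 192), 118 (103 to 135), 36.1 (29.9 to 43.4) and 59.1 (49.6 to 69.8) CPM. All 4 were highest in young WT and lowest in miR-146a-/-, with DKO between miR-146a-/- and WT. Of 16 listed genes 15, 15 and 14 were compared, and between WT and miR-146a-/- 7 fell and 0 rose, with log2 ratios of -2.33 (-2.60 to -2.08) for Ccr7, -1.70 (-2.04 to -1.37) for Satb1, -1.30 (-1.41 to -1.20) for Klf2, -1.12 for Igfbp4, -1.11 for Tcf7 and -1.08 for Bach2, and Lef1 just past 2-fold. The list median there was -0.93, and 0 genes changed in the other contrasts, with medians of -0.42 for WT over young WT and 0.26 for DKO over miR-146a-/-. Ccr7, at 175, 258, 51.1 and 56.9 CPM, was highest in treated WT, where cells with MHC class II UMIs were also present. Without the 78 cells above it stood at 160.2, 100.3, 25.3 and 48.1 CPM, a ratio of -1.98 between WT and miR-146a-/-. A thinned Ccr7 UMI was found in 14.4, 12, 4.15 and 5.23% of CD4 T cells, against 55.0, 47.4, 46.2 and 48.8% of B cells. The part of B-cell RNA in these counts was not tested. S1pr1 was at 115, 89.9, 51.7 and 68.9 CPM and the IL-7 receptor gene Il7r at 305, 252, 193 and 221 CPM, neither of them past 2-fold in any contrast. Without cells bearing a regulatory T-cell UMI 2 of 15 compared genes of the list fell, with a median of -0.56, and the log2 ratios were -0.85 for Klf2, -0.75 for Tcf7, -0.79 for Lef1, -0.56 for Bach2 and -0.56 for Igfbp4, all short of 2-fold, against -2.12 for Ccr7 and -1.27 for Satb1. Igfbp4 fell by more in other settings. It was at -2.24 without the 78 cells and -1.92 without its top cell in each library, and was past 2-fold in the strict gate. The share with a thinned Lef1 UMI was 27.9% (24.5% to 31.6%), 20.9% (15.8% to 26.8%), 11.2% (8.33% to 14.7%) and 15.7% (11.7% to 20.4%), against 1.33, 1.03, 0.481 and 0.816% of B cells (unthinned 50.4, 41.2, 28.6 and 38.8%).

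The list of activation and residence genes did not rise as a whole. Of 24 genes 21, 21 and 18 were compared. Between WT and miR-146a-/- 1 rose (Prdm1) and 4 fell (Rgs2, Nr4a3, Bhlhe40 and Zfp683), and 0 changed in the other contrasts, with medians of 0.19, -0.39 and 0.19. Rgs2 damps G-protein signals, Nr4a3 is an early gene of T-cell receptor signalling, and Bhlhe40 and Zfp683 (Hobit) are transcription factors of cytokine-producing and tissue-resident T cells. Without cells bearing a regulatory T-cell UMI 0 rose and 2 fell, with Prdm1, Zfp683 (-0.85) and Bhlhe40 short of 2-fold. Bhlhe40 was at 228, 399.5, 187 and 216 CPM, highest in treated WT. Cxcr6, the receptor that keeps T cells in liver sinusoids, was nearly level at 410.2, 298, 397 and 308 CPM, and a thinned UMI of it was found in 41.8, 39.1, 45.6 and 39.7% of cells (B cells 1.43, 0.684, 0 and 0.816%, unthinned 57.5, 51.9, 72.6 and 61.9%).

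Genes of the helper lineages changed in different ways. For Th1 cells, 14 genes with 13, 14 and 12 compared had medians of 0.30, -0.47 and 0.01. Eomes rose and Il12rb2 and Ly6c2 fell between WT and miR-146a-/-, and 0 changed in the other contrasts. Ly6c2 was -1.27, but 0.95 in the strict gate and -0.20 without cells bearing a regulatory T-cell UMI. Without the latter cells 1 Th1 gene rose from young WT to WT and 1 fell from miR-146a-/- to DKO. Without cells with NK or NKT genes 2 rose from young WT to WT. The Th1 median of miR-146a-/- over WT was -0.20 without cells bearing a regulatory T-cell UMI and -0.09 in the strict gate. Tbx21 (T-bet), the master regulator of the lineage, was at 165 (154 to 177), 136 (120.0 to 154), 75.4 (66.2 to 85.5) and 108 (95 to 122) CPM and the IL-12 receptor gene Il12rb2 at 95.2 (87.0 to 104), 76.5 (64.4 to 90.1), 15.9 (11.8 to 20.9) and 40.2 (32.5 to 49.2) CPM, both lowest in miR-146a-/-, while Ifng was at 189.6, 295, 175 and 174 CPM and the Th1 chemokine receptor Cxcr3 at 297, 257, 275 and 325 CPM. Eomes and Tbx21, which often go together, thus moved in opposite directions, although Tbx21 (-0.85) did not reach 2-fold. A thinned Ifng UMI was found in 22.2, 24, 23.4 and 22.0% of cells (B cells 1.62, 1.03, 0.240 and 0.816%, unthinned 42.9, 42.9, 43.0 and 41.2%), nearly the same share in each library. For Th2 cells, 11 genes with 4, 3 and 1 compared had medians of -0.05, -0.47 and 0.49. Il4, the lead cytokine of Th2 and NKT cells, fell from young WT to WT, at 65.1 (58.3 to 72.4), 9.69 (5.74 to 15.3), 4.05 (2.16 to 6.93) and 3.0 (1.20 to 6.17) CPM (log2 ratio -2.71 (-3.52 to -2.06)), Il4ra fell between WT and miR-146a-/- (-1.10; -0.83 in the strict gate, and just short of 2-fold without the 78 cells), and 0 rose in any contrast. Gata3, the Th2 regulator, stood at 84.8, 83.5, 60.1 and 84.3 CPM. The cells with NK or NKT genes were also most frequent in young WT (30.6%, 17.2%, 6.73% and 14.3% of members). Without them Il4 was 38.8, 11, 2.02 and 2.59 CPM, a log2 ratio of -1.79 from young WT to WT. These levels are under the 50 CPM needed to compare a gene, so Il4 is not called there. NKT cells in which no UMI of these genes was captured remain among the rest, and how many was not tested. In B cells, Il4 was at 1.42, 0, 0 and 0 CPM. For Th17 cells, 10 genes with 3, 3 and 3 compared had medians of 1.28, -0.72 and -1.40, which rest on few members. The membrane genes Tmem176a and Tmem176b rose from young WT to WT and fell from miR-146a-/- to DKO, at 29.2, 109.8, 66.7 and 24.0 and 57.0, 138, 72.6 and 27.4 CPM, and 0 changed between WT and miR-146a-/-. Dendritic cells express both genes as well, and without the 78 cells the rise of Tmem176b was 0.44 and the falls -0.99 and -0.94. Il17a had UMIs in 0, 1, 7 and 0 cells (0, 1.08, 29.6 and 0 CPM; 0 UMIs allow up to 0.579 CPM in young WT and 1.28 in DKO). Cells with Il17a were thus few, 7 of 416 in the library with most. For follicular helper cells, 16 genes with 9, 9 and 8 compared had medians of 0.14, 0.15 and 0.04. Maf rose between WT and miR-146a-/- and Tnfsf8 between miR-146a-/- and DKO (1.08 (0.86 to 1.31), 146, 154, 84.8 and 179.8 CPM), and 0 fell. Il21 was at 23.8, 23.7, 24.6 and 39.8 CPM and the follicle-homing receptor Cxcr5 at 23.6, 21.0, 32.1 and 26.1 CPM, with a thinned UMI in 3.40, 2.67, 5.61 and 3.83% of cells against 36.4, 30.3, 25 and 26.6% of B cells (unthinned 11.4, 11.6, 14.9 and 12.9%), and its source cannot be told apart from free RNA of B cells.

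The gene of the main helper ligand was lower without miR-146a. Cd40lg, at the levels given above, fell by 1.26 on the log2 scale between WT and miR-146a-/- and differed by 0.44 between miR-146a-/- and DKO. The share with a thinned Cd40lg UMI was 35.5% (31.8% to 39.3%), 30.2% (24.3% to 36.7%), 12.9% (9.84% to 16.6%) and 17.8% (13.5% to 22.7%), against 0.571, 0, 0 and 0% of B cells (unthinned 70.1, 58.8, 28.4 and 40.1%). Both measures put miR-146a-/- lowest. Without cells bearing a regulatory T-cell UMI the ratio was -0.76, short of 2-fold. Of 19 cytokines and ligands 9, 9 and 8 were compared. Csf1, the macrophage growth factor, rose and Il4 fell between young WT and WT, Il10 rose and Csf1 and Cd40lg fell between WT and miR-146a-/-, and Tnfsf8 rose between miR-146a-/- and DKO, with list medians of 0.13, -0.54 and 0.08. The fall of Csf1 (-1.07) was -0.93 without cells bearing a regulatory T-cell UMI and -0.44 with levels averaged over cells. The list median of -0.54 was -0.20 without cells bearing a regulatory T-cell UMI and -0.22 in the strict gate. Csf1 stood at 14.5, 54.4, 25.9 and 25.3 CPM, Il2 at 31.9, 12.9, 11.8 and 16.3 CPM and Tnf at 56, 87.8, 60.5 and 53.5 CPM.

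Few receptor genes changed. Of 21 trafficking receptor genes 13, 13 and 12 were compared, 0 rose and 1 fell (Ccr7) between WT and miR-146a-/- and 0 changed otherwise, with medians of 0.03, 0.10 and 0.00. In the strict gate 3 fell between WT and miR-146a-/- and 1 rose between miR-146a-/- and DKO. Between WT and miR-146a-/-, 2 fell without cells with NK or NKT genes and 2 without the 78 cells. Without cells bearing a regulatory T-cell UMI 1 rose and 1 fell there. Of 21 costimulatory and interleukin receptor genes 18, 18 and 16 were compared. Tnfrsf9 (4-1BB) rose between young WT and WT (1.08; 0.01 in the strict gate and 0.52 without cells with NK or NKT genes), Cd27 rose between WT and miR-146a-/- (102, 92.6, 194 and 188 CPM, 1.07 (0.82 to 1.32)) and 0 fell, with medians of 0.05, -0.14 and 0.05. Tnfrsf4 (OX40) was at 79.8, 142, 218 and 247 CPM, higher in each successive library without a 2-fold step. Cell cycle genes changed only in some settings. Of 14, 12, 13 and 13 were compared, 0 rose or fell in any contrast, the medians were 0.24, -0.12 and 0.41, and Mki67 was at 108, 152, 139.9 and 151 CPM. In the strict gate, however, 10 of 13 compared fell between WT and miR-146a-/- (median -1.25) and 9 of 14 rose between miR-146a-/- and DKO (median 1.36). Of 19 interferon-stimulated genes 14, 15 and 14 were compared. Isg20, an exonuclease, rose between WT and miR-146a-/- and fell between miR-146a-/- and DKO (39.4, 40.4, 83.8 and 39.4 CPM; 1.05 and -1.08, but 0.20 and -0.84 without cells bearing a regulatory T-cell UMI, and for the rise 0.43 in the strict gate and 0.80 without the 78 cells), and the medians were -0.10, 0.14 and -0.37. Isg15 stood at 206, 161, 165 and 101 CPM, lowest in DKO.

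Many immediate early and stress genes were lower without miR-146a. Fos stood at 608 (587 to 629.8), 591 (557 to 627), 116 (104 to 128) and 119.9 (106 to 135) CPM, Jun at 682 (660.0 to 705), 468 (437 to 500.1), 136 (124 to 149.9) and 185 (167 to 203) CPM and Nr4a1 (Nur77), an early gene of T-cell receptor signalling, at 213, 215, 65.4 and 81.3 CPM. The heat shock gene Hspa1b was at 643, 506, 232 and 137 CPM. Young WT and WT were high and miR-146a-/- and DKO low in each case. Of 17 listed genes 17, 17 and 15 were compared. Between WT and miR-146a-/- 8 fell (Fos, Fosb, Jun, Egr1, Hspa1a, Hspa1b, Atf3 and Nr4a1) and 0 rose, with a median of -0.99. Without cells bearing a regulatory T-cell UMI 6 fell, with Hspa1b at -0.76 and Hspa1a at -0.92, and Hspa1b was just short of 2-fold in the strict gate. Atf3 rose between young WT and WT (list median 0.02), though at 0.98 without the 78 cells, and 0 changed between miR-146a-/- and DKO (median 0.10). The log2 ratios in miR-146a-/- against WT were -2.35 (-2.53 to -2.18) for Fos, -1.78 (-1.95 to -1.61) for Jun and -1.71 (-1.96 to -1.47) for Nr4a1. Fos also fell in the other cells of the libraries. It was at 543, 352, 65.3 and 86.6 CPM in CD8 T cells, 692, 773, 67.3 and 121 CPM in Zbtb16-positive T cells, 353, 594, 168 and 161 CPM in Foxp3-positive cells and 1542, 1040.4, 285 and 418 CPM in B cells. These genes are known to respond to cell isolation, and whether handling or genotype set their level cannot be told apart with 1 library per group.

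**Figure D3:**
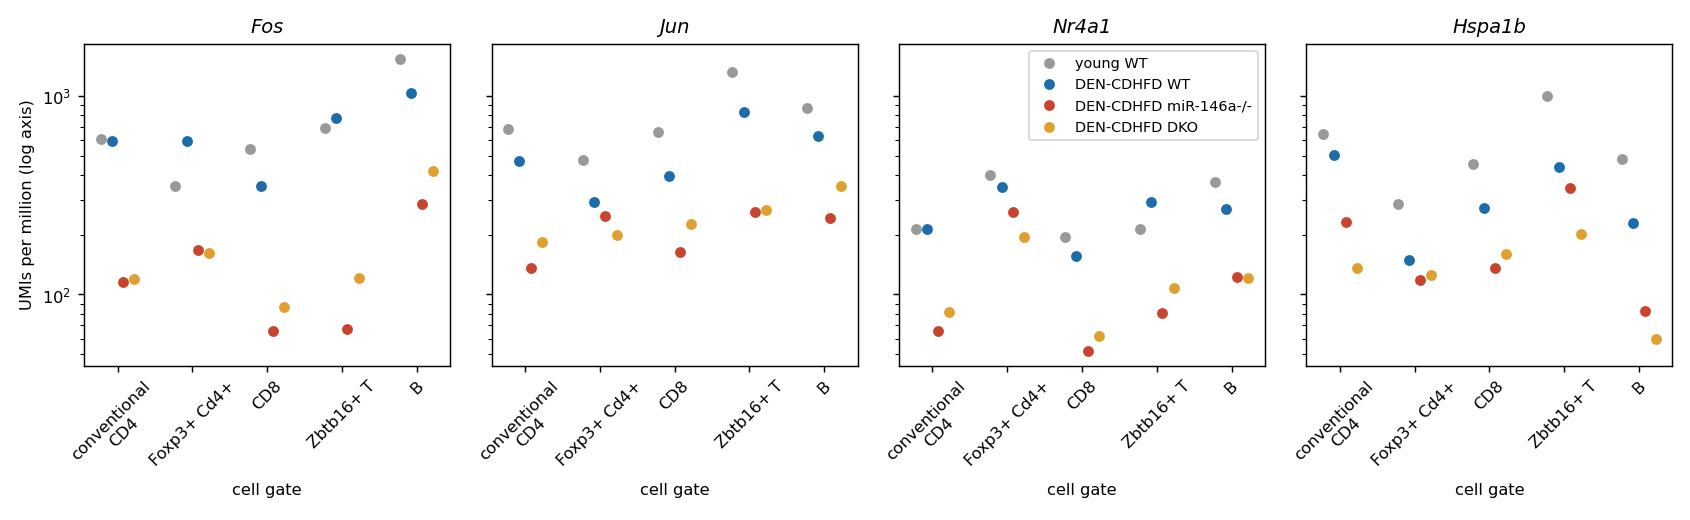
Levels of Fos, Jun, Nr4a1 and Hspa1b in conventional CD4 T cells, Foxp3-positive Cd4 cells, CD8 T cells, Zbtb16-positive T cells and B cells of each library, in CPM on a log axis; each point is 1 library. In the CD4 T cells Fos lies at 608 and 591 CPM in young WT and WT and at 116 and 119.9 CPM in miR-146a-/- and DKO, and miR-146a-/- and DKO lie below WT in all 5 cell types.

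Reported targets of miR-146a and the NF-κB pathway were not broadly higher in its absence. Of 18 NF-κB genes 17, 17 and 17 were compared, with medians of 0.39, -0.16 and 0.02. Rel fell between WT and miR-146a-/- (-1.23 (-1.48 to -0.98), 95.6, 169, 72.0 and 86.0 CPM) and 0 rose in any contrast. Without cells bearing a regulatory T-cell UMI 2 rose between young WT and WT, and 2 fell between WT and miR-146a-/-, with a median of -0.60 there, and in the strict gate 1 rose between WT and miR-146a-/-. Rel was -0.81 without the 78 cells and -0.35 in the strict gate, short of 2-fold. The list holds Bcl2a1b and Bcl2a1d, near-identical copies whose counts are uncertain. Of 9 reported targets 8, 6 and 6 were compared, with medians of -0.02, 0.12 and -0.13. Ccl5 rose between WT and miR-146a-/- and fell in DKO, where it is deleted, and 0 others changed. Traf6, the adaptor of Toll-like receptor signalling, stood at 29.4 (24.9 to 34.4), 37.7 (29.4 to 47.6), 34.9 (28.7 to 42.0) and 35.5 (28.3 to 44.0) CPM and the kinase gene Irak1 at 51.4 (45.4 to 57.9), 51.2 (41.4 to 62.5), 64.2 (55.7 to 73.6) and 68.5 (58.3 to 80) CPM. Neighbouring libraries overlap in their intervals for both. Irak2 was at 63.3, 45.2, 45.2 and 47.1 CPM, Relb at 64.5, 122, 76.7 and 60.4 CPM, Icos at 211, 206, 159.5 and 205 CPM, Notch1 at 40.9, 53.3, 72.3 and 64.6 CPM, Numb at 56.8, 45.2, 39.9 and 44.5 CPM and Smad4 at 70.3, 56.5, 53.6 and 49.7 CPM. A microRNA can lower protein without an equal change of transcript, and protein was not measured here.

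**Figure D4:**
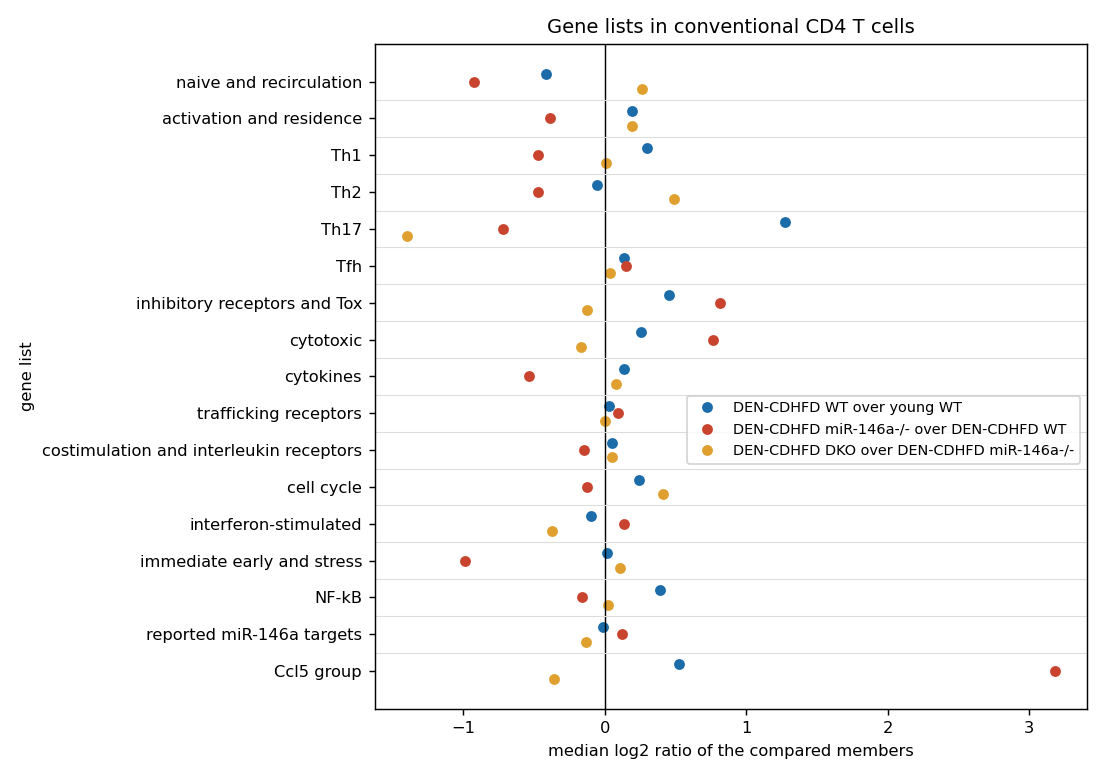
Median log2 ratio of the compared members of 17 gene lists in conventional CD4 T cells, 1 point per contrast. In miR-146a-/- over WT the immediate early list lies at -0.99, the naive list at -0.93, the inhibitory receptor list at 0.82 and the Ccl5 group at 3.18, beside medians of 0.03, -0.02 and 0.04 over all compared genes.

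More cells had Eomes without miR-146a, and these cells also held more chemokine UMIs. Cells with an Eomes UMI, a subset chosen after its values had been seen, were 55 of 669 (8.22%, 6.25% to 10.6%), 39 of 233 (16.7%, 12.2% to 22.2%), 194 of 416 (46.6%, 41.8% to 51.6%) and 103 of 294 (35.0%, 29.6% to 40.8%). After thinning they were 4.17, 8.89, 25.6 and 19.9%, against 0.667, 0.171, 0 and 0.326% of B cells. Compared with the other CD4 T cells of their library they had more Gzmk by 1.99 to 4.24 on the log2 scale, Prf1 by 1.88 to 3.39, Ccl3 by 1.66 to 2.73, Ccl4 by 1.62 to 2.42 and Nkg7 by 1.34 to 1.60. Ier3, Nr4a2, Ctla2a, Baiap3, Setbp1, Rasgef1b and Asap2 completed the 12 largest ratios. Cells without Eomes had more Tmem176b (2.27 to 3.89 in the treated libraries, with 0 UMIs in young WT cells with Eomes), Tmem176a, Zfp683 (1.84 to 4.68), Ccr7, the ectonucleotidase CD73 (Nt5e) and Cd40lg (1.39 to 3.23), beside Nav2, Cd79a, Tmem64, Ly6d, Cd83 and Gpm6b. In cells with Eomes, Ccl4 was 568, 630.2, 4848 and 4382 CPM and Il10 3.80, 82.3, 226 and 231 CPM, and Cd40lg 95.1, 53.8, 16.5 and 17.2 CPM. In cells without Eomes, Ccl4 was 151, 206, 1006 and 819 CPM, Il10 8.81, 37.6, 47.3 and 91.4 CPM and Cd40lg 252, 225, 136 and 166 CPM. The split is by a gene that itself rose and may not be captured in every cell that expresses it, so cells without an Eomes UMI can include expressing ones, and how many in each library was not tested. Between WT and miR-146a-/-, cells without an Eomes UMI differed by 2.29 in Ccl4, 1.94 in Gzmk, 1.77 in Lag3, 1.34 in Ccl5 and 1.14 in Tigit, whereas Il10 (0.33), Maf (0.86), Prf1 (0.31) and Cd40lg (-0.73) were short of 2-fold. Ifng was 192, 324, 91.8 and 143 CPM in cells without Eomes, a log2 ratio of -1.82 between WT and miR-146a-/-, and 171, 155, 276 and 226 CPM in cells with it.

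Of the 12 largest rises from young WT to WT, several sat in few cells. Gcg (proglucagon) had 0 UMIs in young WT and 87.8 CPM in 6 WT cells, at least 151-fold higher against a floor of 3 counts per library. Gzmc (4.62) had 82.1% of its WT UMIs in 1 cell, Gm2663 (2.97) was found in 5 cells of either library, Penk (2.59), the enkephalin precursor, in 14 WT cells with 71.2% of UMIs in 1, and Spp1 (osteopontin, 2.25; 0.68 without cells bearing a regulatory T-cell UMI) in 19 with 59.7% in 1. These 5 rises sat in 5 to 19 cells each. Fscn1 (3.22) and Fabp5 (1.94), genes that activated dendritic cells and macrophages also express, were -0.65 and 0.13 without the 78 cells, and Marcks (2.66) was 1.13. Spread over 29 to 63 WT cells were the rises of Csf1 (1.91 (1.46 to 2.36)), Ifitm2 (1.85 (1.55 to 2.16)), Tmem176a (1.91) and Gzmk, of which Ifitm2 was 0.87 in the strict gate and 0.79 with at most 4000 genes per cell. In B cells of young WT and WT, Csf1 was at 4.14 and 4.96 CPM, Ifitm2 at 2.59 and 2.10 CPM and Gzmk at 1.68 and 1.15 CPM. Of the 12 largest falls, 4 were globins from 2 to 4 young WT cells (Hbb-bs at least 395-fold lower, Hba-a1 58.0-fold, Hbb-bt 57.9-fold, and Hba-a2 -6.23 with 1 UMI in WT, interval -12.12 to -4.32). Hba-a1 and Hba-a2 are near-identical, so their counts are uncertain. Beside Il4, Mmp9 (matrix metalloproteinase 9) fell by 2.07, from 171 of 669 cells in young WT to 17 of 233 in WT, at 75.7, 17.8, 8.73 and 39.4 CPM. The potassium channel gene Kcnq5 fell by 1.39, AW011738 by 1.29 and Gm19585 by 1.11 (-0.81 without cells bearing a regulatory T-cell UMI). In B cells Mmp9 stood at 1.29 and 0 CPM in young WT and WT and was too low there to compare. The histone genes Hist1h2ab (-1.47), Hist1h2ap (-1.45) and Hist1h4d (-1.25) have near-identical copies and are uncertain.

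Of the 12 largest rises from WT to miR-146a-/-, 4 were globins from 1 cell, at least 658-fold for Hbb-bs, 233-fold for Hba-a1 and 145-fold for Hbb-bt, with Hba-a2 at 8.28 (6.38 to 14.17). The other 8 were Ccl4, Ccl3, Havcr2, Gzmk, Ccl5, Prdm1, Lag3 and Eomes. In B cells of WT and miR-146a-/-, Ccl4 was at 88.4 and 54.0 CPM, Ccl3 at 18.1 and 10.5, Ccl5 at 190.3 and 109, Prdm1 at 10.7 and 6.37, Gzmk at 1.15 and 2.49, Lag3 at 7.63 and 4.99, Havcr2 at 2.29 and 0.277 and Eomes at 0.954 and 0.831 CPM. These levels were below those of the CD4 T cells and, except for Gzmk, lower in miR-146a-/- than in WT. Of the 12 largest falls, Gm2663 (5 WT cells, at least 259-fold lower), Gzmc (-7.29, 5 cells in each) and Fscn1 (-3.19, 9 WT cells) sat in few cells, and Sostdc1 (-6.36) in 15 of 233 WT and 2 of 416 miR-146a-/- cells. Atf3 (-4.53), Fosb (-2.49) and Fos belong to the immediate early genes. Cd83, an activation marker of dendritic and lymphoid cells, had a ratio of -2.43 (-2.85 to -2.04), and -1.37 without the 78 cells. Gm47283 (-2.81 (-3.42 to -2.26)), Ifitm2 (-2.39 (-2.81 to -1.99)), Ccr7 and Il12rb2 (-2.26 (-2.76 to -1.80)) completed the set. In B cells Gm47283 was at 56.3 and 15.5 CPM and Ifitm2 at 2.10 and 9.14 CPM in WT and miR-146a-/-.

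Between miR-146a-/- and DKO many of the largest changes apart from Ccl5 were counted in single cells or in genes known from other cell types. Lcn2 (at least 85.2-fold higher), Retnlg (7.40 (5.86 to 10.77)), Ngp (6.15), S100a9 (3.74) and S100a8 (3.73) are neutrophil genes, and 1 DKO cell held 99.0% of the 3427 neutrophil marker UMIs of that library. Without the cell of each library that held most of a gene's UMIs, S100a9 was -0.01 and S100a8 -1.31. Lyz2 (1.73) had 67.6% of its DKO UMIs in 1 cell. The NK receptor genes Klre1 (1.80), Ncr1 (1.51) and Klrb1c (1.51) rose, but were 0.64, 0.19 and 0.07 without cells bearing a regulatory T-cell UMI. Sostdc1 rose by 4.83 (3.78 to 6.41) and was found in 2 and 10 cells. Gm42031, at 28.8, 35.5, 25.9 and 111 CPM, and Camk2b, a calmodulin-dependent kinase at 55.8, 59.8, 42.4 and 122 CPM, rose by 2.10 (1.74 to 2.48) and 1.52 (1.23 to 1.83), and were also highest in DKO in CD8 T cells (Camk2b 38.4, 40.4, 28.8 and 99.2 CPM), Foxp3-positive cells (87.7, 55.9, 78.2 and 239 CPM) and B cells (75.5, 111, 95.3 and 259.5 CPM). This pair was thus high across the DKO library and not in CD4 T cells alone. Of the 12 largest falls, 4 were the globins of 1 miR-146a-/- cell (Hba-a2 at least 196-fold, Hbb-bt 182-fold, Hbb-bs -10.69 and Hba-a1 -7.97 (-10.47 to -6.64)). The others beside Ccl5, Tmem176a and Tmem176b were the chemokine gene Cxcl10 (-3.01 (-3.80 to -2.36); 14 and 8 cells; -0.37 without cells bearing a regulatory T-cell UMI), Slfn8, a Schlafen family gene induced by interferon (-1.24 (-1.71 to -0.80), 57.9, 40.4, 55.8 and 23.5 CPM), Isg20 (-1.08 (-1.45 to -0.74)), the B-cell receptor gene Cd79a (-1.01) and the MHC class II gene H2-Aa (-1.01). B and dendritic cell markers in the gate were likewise lowest in DKO, at the summed levels given above, and H2-Aa was 0.50 without the 78 cells. Slfn8 stood in B cells at 29.6 and 36.4 CPM in miR-146a-/- and DKO. Of the 44 genes that rose from WT to miR-146a-/-, those that fell 2-fold in DKO were Ccl5 itself, Isg20 and the globins of 1 cell.

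Antigen receptor segments give a further measure of which T cells passed the rule, which did not use them. Trav11, a segment of the invariant receptor of NKT cells, had a UMI in 1.54% (0.742% to 2.82%), 1.33% (0.276% to 3.85%), 0.488% (0.0591% to 1.75%) and 0.697% (0.0845% to 2.49%) of thinned CD4 T cells, and unthinned in 4.93%, 3.0%, 1.44% and 1.36%. In Zbtb16-positive T cells it was found in 3.71%, 3.98%, 2.65% and 4.24% thinned and in 9.65%, 9.39%, 10.8% and 10.5% unthinned, and in at most 0.383% of unthinned CD8 T cells. Trav11d and Traj18 had 0 UMIs, which at 3 counts of the total allows up to 0.448%, 1.29%, 0.721% and 1.02% of unthinned CD4 T cells with a UMI. Cells with Trav11 were thus among the members at a rate above CD8 T cells and below Zbtb16-positive cells. Of the CD4 T cells with a UMI of any of 35 Trbv segments (630, 211, 399 and 272), Trbv13-2, the segment of Vβ8.2 that NKT cells use often, was found in 41.7% (37.9% to 45.7%), 31.8% (25.5% to 38.5%), 29.8% (25.4% to 34.6%) and 25.4% (20.3% to 31.0%), against 56.5%, 54.4%, 54.0% and 43.3% in Zbtb16-positive T cells. Some segments, named after their values had been seen, stood out in 1 library. Trbv16 was in 20.6% (16.7% to 24.9%) of miR-146a-/- cells and in 5.56%, 4.74% and 5.51% of the others, and Trbv29 in 14.0% of miR-146a-/- cells and in 5.24%, 4.27% and 4.78% of the others. In Zbtb16-positive T cells, however, Trbv29 was in 10.1%, 11.6%, 18.6% and 23.3%, highest in DKO. Trbv19 was highest in both miR-146a-/- and DKO, at 8.57%, 10.4%, 18.5% and 14.3% of CD4 T cells. Trbv5 was in 23.5% (18.6% to 29.0%) of DKO cells against 6.19%, 12.3% and 4.51%, and Trbv2 in 19.9% (15.3% to 25.1%) against 7.46%, 7.58% and 11.8%. Whether these are expanded clones was not tested, since receptor sequences were not used here.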

How the data were processed

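CD45+ liver cells of 4 mouse libraries had been sequenced with 10x Genomics 5′ chemistry. The authors aligned the reads to mm10 with Cell Ranger 7.0.1, per the labels and matrix headers, while the published methods name another version, and the deposited values are whole-number counts of UMIs, not normalized. From these counts, cells with 600 to 6000 genes and at most 5% mitochondrial UMIs were kept, doublets being limited only by the upper limit of genes. Members were gated on raw UMIs. For shares of cells with a gene, each cell was reduced to 2000 UMIs by random draw (seed 1). UMIs of the members were summed per library, and a gene was compared if either library of a pair reached 50 CPM with 20 UMIs, without mitochondrial, ribosomal protein and antigen receptor segment genes. Log2 ratios used a prior of 0.5 counts and are called past 1. A fold against 0 UMIs is a lower bound with 3 counts in its place, a share of 0 is limited by 3 counts of the total, and no ratio was formed where both libraries held 3 or fewer UMIs. Levels carry exact Poisson intervals, shares Clopper-Pearson, differences Newcombe and ratios conditional binomial intervals, each at 95%. Groups were 1 library each, so no test was made.

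The genes named are those of the marker and gene lists, the 12 largest rises and falls of each contrast and the 15 largest within-library ratios against CD8 and Foxp3-positive T cells. Some planned genes, and the planned cell states that used one of them, are not reported here, and the list counts and medians leave these genes out. The members and lists were chosen with earlier results of these data known. The Eomes subset and what was said above to be chosen later are outside this rule. Alternatives were thinned or stricter gates, TMM factors, a prior of 5 counts, levels averaged over cells, a floor of 10 CPM, at most 4000 genes, a mitochondrial limit of 10%, all UMIs for shares, and 4 that were added after seeing the data. Python 3.11.15 was used with numpy 2.4.6, scipy 1.17.1, pandas 2.3.3 and matplotlib 3.10.9, and edgeR 4.0.16 in R 4.3.3. Interval functions were tested on simulated data.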

Additional observations from a re-analysis of the deposited data

How the results depend on the processing

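In the 3 contrasts no difference of the CD4 shares was reversed in any setting, whereas the order of DKO and WT, and of miR-146a-/- and young WT, changed in some. Between WT and young WT the difference was -2.86 points with the gate on thinned cells, -2.02 with 2 Cd4 UMIs, -1.02 in the strict gate and -5.41 as a share of cells with a Cd3 UMI. Between miR-146a-/- and WT it was 1.47 in the strict gate and 4.14 as a share of Cd3 cells, and between DKO and miR-146a-/- -1.55 with the gate on thinned cells and -1.21 in the strict gate. The 4 alternatives named next were chosen after seeing the data. They leave out cells with NK or NKT genes, cells with a regulatory T-cell UMI, cells with over 10 UMIs of globin, neutrophil or MHC class II genes, or the top cell of each gene in each library. WT minus young WT was -2.20 points without NK or NKT genes and -2.42 without regulatory T-cell UMIs, and without the latter the later differences were 0.639 and -1.06. A mitochondrial limit of 10% gave -3.65, 2.42 and -2.26 points in the 3 contrasts. The Trav11 share of young WT was 4.93% without thinning.

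Genes past 2-fold between young WT and WT were 52 higher and 53 lower in the strict gate, 147 and 100 with at least 10 CPM, and 44 higher in cells with at most 4000 genes. Without regulatory T-cell UMIs 53 were higher. Between WT and miR-146a-/- there were 75 and 155 in the strict gate and 130 and 299 with at least 10 CPM. Of the 44 and 80 called there, the strict gate kept 32 and 41, TMM factors 44 and 66, and the gate without regulatory T-cell UMIs 24 and 43. TMM factors put 42.6% of the called genes higher, against 35.5% without them. Between miR-146a-/- and DKO 65 were higher in the strict gate, and 139 higher and 85 lower with at least 10 CPM. Without globin, neutrophil or MHC class II cells 4 were lower, without regulatory T-cell UMIs 10 were higher and 22 lower, and without top cells 13 were higher.

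Among log2 ratios of the named genes called past 2-fold in the main setting, 28 values changed sign under an alternative, and ratios short of 2-fold changed sign as well. Called genes that are not named were not followed, and values with 3 or fewer UMIs in both libraries are not counted. From young WT to WT these were Fscn1 without globin, neutrophil or MHC class II cells (-0.65), Gm2663 without regulatory T-cell UMIs (-6.78), Hist1h2ap at most 4000 genes (0.65) and Lilrb4a in the strict gate (-0.018). From WT to miR-146a-/- they were all in the strict gate, namely Cd160 (0.16), Hist1h2ap (-0.85), Klre1 (0.10), Klrk1 (0.85) and Ly6c2 (0.95). From miR-146a-/- to DKO, cells with at most 4000 genes gave Cd79a 2.04, H2-Aa 1.33, Hist1h2ab -0.45, Ngp -1.59, S100a8 -3.68 and S100a9 -2.64. H2-Aa was 0.88 in the strict gate and 0.50 without globin, neutrophil or MHC class II cells, and Klrk1 -1.88 in the strict gate and -2.09 without NK or NKT genes. Without globin, neutrophil or MHC class II cells, without regulatory T-cell UMIs and without top cells, Ngp was -0.98, -0.38 and -0.39, S100a8 -1.46, -3.31 and -1.31, and S100a9 -0.0081, -0.60 and -0.014. The cell cycle median of DKO over miR-146a-/- was -0.33 with at most 4000 genes, the only list median that changed sign with both values at least 0.2 from 0. Smaller medians also changed sign. For WT over young WT, Th1 was -0.12 in the strict gate and Th2 0.40 without NK or NKT genes. For miR-146a-/- over WT, trafficking receptors were -0.16 without NK or NKT genes and reported targets -0.21 without regulatory T-cell UMIs, and activation genes of DKO over miR-146a-/- were -0.05 without the latter. In the strict gate 10 of 13 cell cycle genes fell between WT and miR-146a-/- and 9 of 14 rose between miR-146a-/- and DKO. Where a setting leaves out cells, it also lowers the counts, and the cause of each change was not tested.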
